A study of Danio rerio with 12 samples.

Results

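The 71 genes described here were taken by their symbols as genes for proteins of the cytosolic ribosome. They are all genes on the array whose symbol starts with rpl or rps and a number, or is *rpsa*, without the ribosomal S6 kinases and without the mitochondrial ribosomal proteins. They are 71 of 8793 genes named on the array. Among 15502 probe sets tested, 76 met this rule, and each gene is represented by the probe set with the highest mean log2 signal. By symbol, 42 of the 71 genes are counted with the large 60S subunit (rpl) and 29 with the small 40S subunit (rps and *rpsa*). A symbol does not show whether the product of each paralog, such as *rpl7l1*, is part of the finished ribosome. The letter of the rule also takes in *rps19bp1*, whose product binds Rps19 and is not itself a ribosomal protein. Removing it left every count of calls against WT unchanged.

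The samples are whole zebrafish embryos of the TL strain collected at 3 stages: 30% epiboly (30%E), while the blastoderm spreads over the yolk, 75% epiboly (75%E), during gastrulation, and tailbud (TB), when gastrulation ends. QKD embryos had been injected with translation-blocking morpholino oligonucleotides against the 4 genes *sox2*, *sox3*, *sox19a* and *sox19b*, and WT embryos were uninjected. Each of the 6 groups has 2 samples, which gives 12 Affymetrix Zebrafish Genome arrays, and the labels give 100 embryos and 4 µg of total RNA per sample. No embryos injected with a control oligonucleotide are among these samples, so injection itself and the loss of the Sox proteins cannot be told apart. The paper reports no abnormal development after injection of mismatched control oligonucleotides, but array values of such embryos are not among these data. Probe sets of the targeted genes do not check such a block, which acts on the protein: in QKD embryos at 30%E, 75%E and TB, *sox2* differed from WT by -0.94, 2.25 and 2.14 log2 units, *sox3* by 0.65, 1.56 and 1.48, *sox19a* by 0.40, 0.51 and 0.53 and *sox19b* by 1.77, 1.28 and 1.25.

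A ribosome is built from ribosomal RNA and a set of proteins that are mostly needed in equal amounts, and the genes for these proteins are among the most strongly transcribed of a growing cell. The egg supplies the early embryo with finished ribosomes and with maternal mRNA, and the zygotic genome takes over ribosomal protein synthesis later. An array reads maternal and zygotic copies of a transcript alike. In many animals ribosomal protein mRNAs share a pyrimidine tract at their start, through which growth signals control their translation, and a measurement of mRNA does not show that control.

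The values are deposited signals on a linear scale, of which log2 was taken. A change is a difference of group means in log2 units with its standard error (SE), from 1 limma fit to all 12 arrays. P-values were adjusted by the Benjamini-Hochberg method over all 15502 probe sets, and a gene counts as called where the adjusted p is under 0.05. Because a probe set has its own brightness, levels are compared only within a gene, between samples. The RNA comes from whole embryos, where fewer cells with a transcript and less of it per cell cannot be told apart. The median signal of all probe sets lay between 73.5 and 76.6 on the 12 arrays, and the median over the 71 genes lay between 2039 and 6762. On every array 60 to 70 of the 71 genes were above the 95th percentile of that array.

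The most general change in these genes was with stage. In QKD embryos 68 of the 71 genes rose between 30%E and 75%E and 0 fell, where 30.9% of all probe sets rose and 29.4% fell, and the median change was 1.17 log2 units. In WT embryos 66 of the 71 rose over the same step and 0 fell, beside 30.2% and 27% of all probe sets. The WT median was 0.93 over the 71 genes and 0.09 over all probe sets, and the WT median ratio of mean signals was 1.90. The 66 were 39 of 42 large subunit and 27 of 29 small subunit genes, with medians of 0.98 and 0.91. By limma, 0 of the 71 fell at an unadjusted p under 0.05 over this step, where 30.4% of all probe sets did in QKD and 28.4% in WT, or over the next, where 15.9% did in QKD and 19% in WT. The plot of signals by array shows the shift of the whole set.

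**Figure D1:**
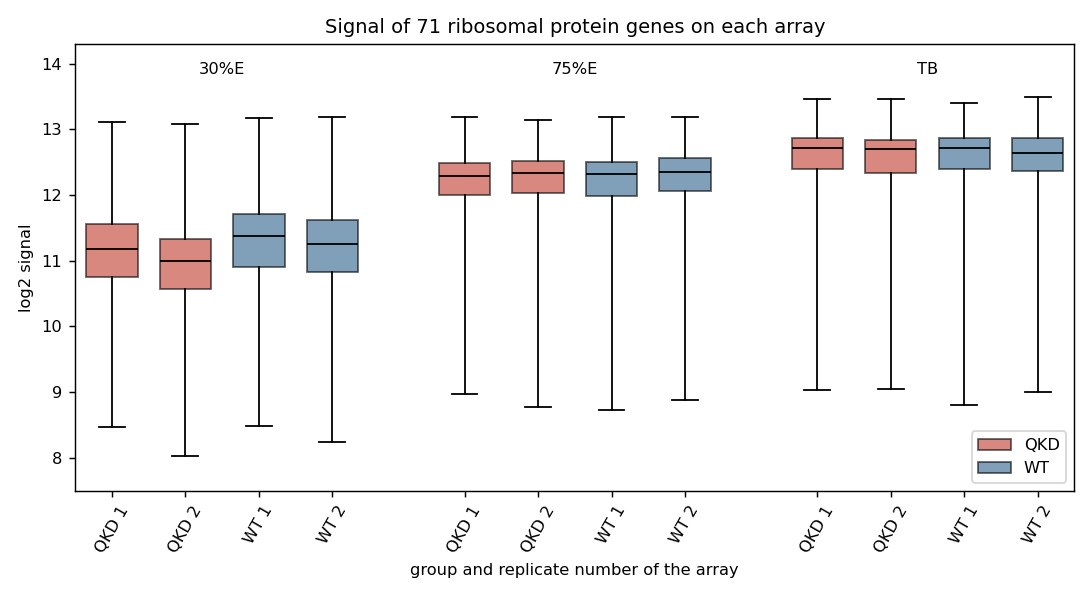
Signal of the 71 genes (log2, vertical axis) on each of the 12 arrays, with boxes from the lower to the upper quartile, a line at the median and whiskers to the lowest and highest gene. The medians lie between 10.99 and 11.37 at 30%E and reach 12.72 at TB, and at 30%E both QKD medians lie below both WT medians.

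The 8 largest increases of this step were in *rpl5a*, *rps26l*, *rpl21*, *rpl7*, *rpl35a*, *rpl22*, *rpl27* and *rpl27a* in QKD embryos, with changes of 1.71 to 2.14 log2 units, and in *rpl5a*, *rps26l*, *rpl21*, *rpl27a*, *rpl22*, *rpl26*, *rpl23a* and *rpl27* in WT embryos, with changes of 1.47 to 1.84. *rpl5a* codes for a form of Rpl5, which with Rpl11 carries 5S ribosomal RNA into the large subunit. In QKD embryos its signal was 2627 and 2799 at 75%E, against 666 and 569 at 30%E, a change of 2.14 (adjusted p = 3.69e-08). In WT embryos it was 2434 and 2779.8 at 75%E, against 779 and 673 at 30%E, a change of 1.84 (SE 0.12, adjusted p = 1.41e-07). The arrays of the later stage lay far above those of the earlier one in both kinds of embryo. *rps26l*, another gene for the mRNA exit channel protein Rps26, gave 3266 and 3339 at WT 75%E, against 1018 and 992 at WT 30%E (1.72, adjusted p = 2.59e-08). Among groups of genes by place in the ribosome, the median WT change was 0.69 in the 5S particle (3 of 3 genes rose), 1.09 at the exit tunnel and its rim (10 of 10), 1.01 at mRNA entry and decoding (6 of 6), 0.88 at mRNA exit and platform (4 of 4) and 0.81 in the head (6 of 7).

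The 5 genes not called in WT over this step were *rpl12*, *rps20*, *rpl23*, *rpl7l1* and *rps19bp1*, with changes of -0.04, 0.19, 0.18, 0.15 and 0.28. *rpl12* codes for a protein at the base of the stalk that recruits translation factors. It had signals of 9236 and 9323 at WT 30%E, 8798 and 9198 at WT 75%E and 9812 and 10571 at WT TB, and the WT arrays of 75%E lay slightly below those of 30%E. *rpl12*, *rps20* and *rpl23* are among the 5 genes whose probe sets are brightest on these arrays, with *rpl7a* and *rps14*, which rose by 0.59 and 0.41. *rpl7l1*, *rps19bp1* and *rpl5a* are among the 5 dimmest, with *rpl22l1* and *rps27l*. The brightest signal of any of the 71 genes was 11514, and the highest signal of any probe set was 17710.4 to 22045 per array. Whether the bright probe sets respond less than others was not tested.

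The second step, from 75%E to TB, was smaller. In QKD embryos 49 of the 71 genes rose and 0 fell, where 12.1% of all probe sets rose and 10.2% fell, with a median of 0.35. In WT embryos 40 rose and 0 fell, beside 14.1% and 13.7% of all probe sets, and the median change was 0.33 over the 71 genes and -0.03 over all probe sets. Estimates above 0 numbered 70 of 71 in QKD and 71 of 71 in WT. No gene passed a ratio of mean signals of 2 in either. These counts depend on the number of arrays. In QKD the count fell by over 1.5 times when any 1 array of the compared stages was left out. In WT it did so without TB replicate 1, TB replicate 2 or 75%E replicate 1. Such a fit has 1 array in a group and less precision for every probe set. The share of all probe sets called in it is not given, so whether the loss is particular to these genes was not tested.

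Over this step *rps27l*, *rpl5a* and *rpl22l1* had the largest changes in QKD embryos (0.76, 0.73 and 0.61), and *rpl22l1* and *rpl5a* in WT embryos. *rpl22l1* is a paralog of *rpl22*, whose product lies at the rim of the exit tunnel. In QKD embryos its signal was 1504 and 1594 at TB, against 959 and 1069 at 75%E (adjusted p = 0.00287). In WT embryos it was 1865 and 1697 at TB, against 961 and 826 at 75%E, a change of 0.998 (SE 0.113, adjusted p = 8.37e-05). The knockdown effect on *rpl22l1* changed by -0.38 log2 units from 75%E to TB, and this was not past the threshold (adjusted p = 0.451). In WT, *rpl5a* rose by 0.74, followed by *rpl35a* (0.64), *rpl35* (0.58), *rps6* (0.53), *rps3a* (0.51), *rpl6* (0.49) and *rpl22* (0.49). Rps6 is the small subunit protein phosphorylated by the S6 kinases. *rpl29* showed the smallest change, 0.05 in WT.

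**Figure D2:**
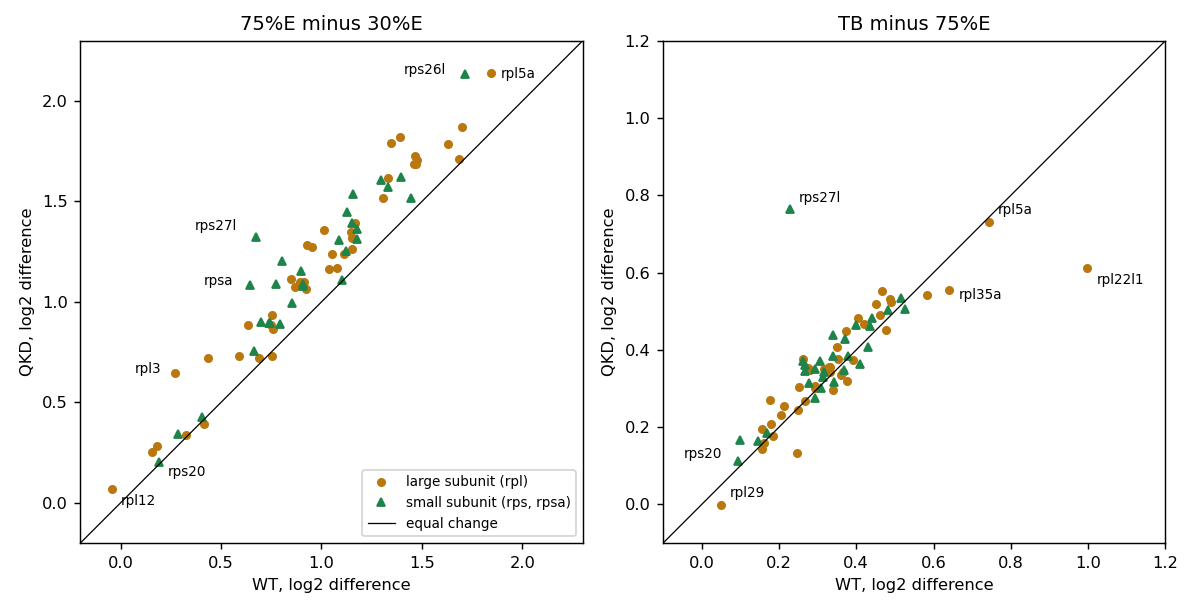
Change of each of the 71 genes between stages in QKD embryos (vertical axis, log2 difference) and WT embryos (horizontal axis), with circles for large and triangles for small subunit genes and a line of equal change. From 30%E to 75%E nearly all points lie above the line, with medians of 1.17 in QKD and 0.93 in WT, and from 75%E to TB they lie about it, apart from *rps27l* above and *rpl22l1* below.

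From 30%E to TB the median ratio of mean signals was 3.06 in QKD embryos and 2.48 in WT embryos, and it was highest for *rpl5a*, at 7.29 in QKD and 6.0 in WT, and lowest for *rpl12*, at 1.21 in QKD and 1.1 in WT. The share of the summed array signal that came from the 71 genes rose with stage as well. In QKD embryos it was 3.60% and 3.24% at 30%E, 6.88% and 6.91% at 75%E, and 8.77% and 8.76% at TB. In WT embryos it was 4.02% and 3.78% at 30%E, 6.87% and 7.06% at 75%E, and 8.78% and 8.70% at TB. The QKD and WT shares did not overlap at 30%E and lay close together at TB. The interquartile range of the log2 signals over the 71 genes was 0.77 to 0.81 on the arrays of 30%E and 0.47 to 0.53 on those of the later stages.

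The knockdown comparison at 30%E asks whether these genes had reached the same level in QKD and WT embryos. They were slightly lower in QKD. The median difference was -0.20 log2 units over the 71 genes and -0.03 over all probe sets, and the median ratio of mean signals was 0.872. Of the 71 estimates 69 were below 0, where 55.7% of all probe sets were. Called lower were 9 genes and called higher 0, where 2.92% of all probe sets were called lower and 5.14% higher. Most probe sets are much dimmer than these genes, and 92 other bright ones are described with the other lists below. At an unadjusted p under 0.05, 27 genes were lower and 0 higher, where 7.19% of all probe sets were lower and 11.2% higher. When replicate numbers entered the fit as a block for each stage, 15 genes were called lower, beside 5.23% of all probe sets.

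The 9 genes were *rpsa*, *rps15a*, *rps26l* and *rps29* of the small subunit and *rpl7*, *rpl3*, *rpl15*, *rpl14* and *rpl35a* of the large subunit, and their changes ran from -0.51 to -0.39. *rpsa* codes for a protein of the mRNA exit platform, known also as the laminin receptor precursor. Its signal was 3610.2 and 3311 in QKD embryos and 5161 and 4711 in WT embryos, a difference of -0.51 (SE 0.0994, adjusted p = 0.00785). *rpl7* had 1428 and 1307 in QKD embryos and 1998 and 1815 in WT embryos (-0.48, SE 0.1, adjusted p = 0.0123). Both QKD arrays lay below both WT arrays for these genes.

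Rpl3, a large subunit protein that reaches toward the peptidyl transferase centre, is covered by 2 probe sets. The brighter gave 4196 and 3836 in QKD embryos and 5479 and 5342 in WT embryos (-0.43, SE 0.0942, adjusted p = 0.0154), and the other differed by -0.55 (SE 0.0986, adjusted p = 0.00487). *rps26l* gave 771 and 738 in QKD embryos and 1018 and 992 in WT embryos (-0.41, adjusted p = 0.0135). *rpl35a*, whose human counterpart is a Diamond-Blackfan anemia gene, gave 1355 and 1333 in QKD embryos and 1774 and 1742 in WT embryos (-0.39, adjusted p = 0.021). The QKD and WT arrays were clear of each other for each of them. *rps15a*, *rps29*, *rpl14* and *rpl15* differed by -0.43, -0.39, -0.39 and -0.40, with adjusted p between 0.0216 and 0.0479. The block added *rps2*, *rpl9*, *rps23*, *rps19*, *rpl26* and *rps4x*, whose differences were -0.37 to -0.32.

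For some genes the levels were nearly equal. *rps3*, a protein at the mRNA entry, had 2379 and 2202 in QKD embryos and 2409 and 2173 in WT embryos, and *rps14*, whose loss in human cells is tied to the 5q- syndrome, had 5814 and 5447 in QKD embryos and 5649 and 5669 in WT embryos. QKD and WT arrays overlap for both genes, and the 95% intervals of their differences were -0.22 to 0.22 and -0.22 to 0.20. In all, 50 of the 71 genes had both QKD arrays below both WT arrays, where 26.9% of all probe sets did, and 0 had both above, where 22.7% did. The interval of the difference lay within 0.5 log2 units of 0 (a ratio of 1.41) for 51 of the 71 genes.

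**Figure D3:**
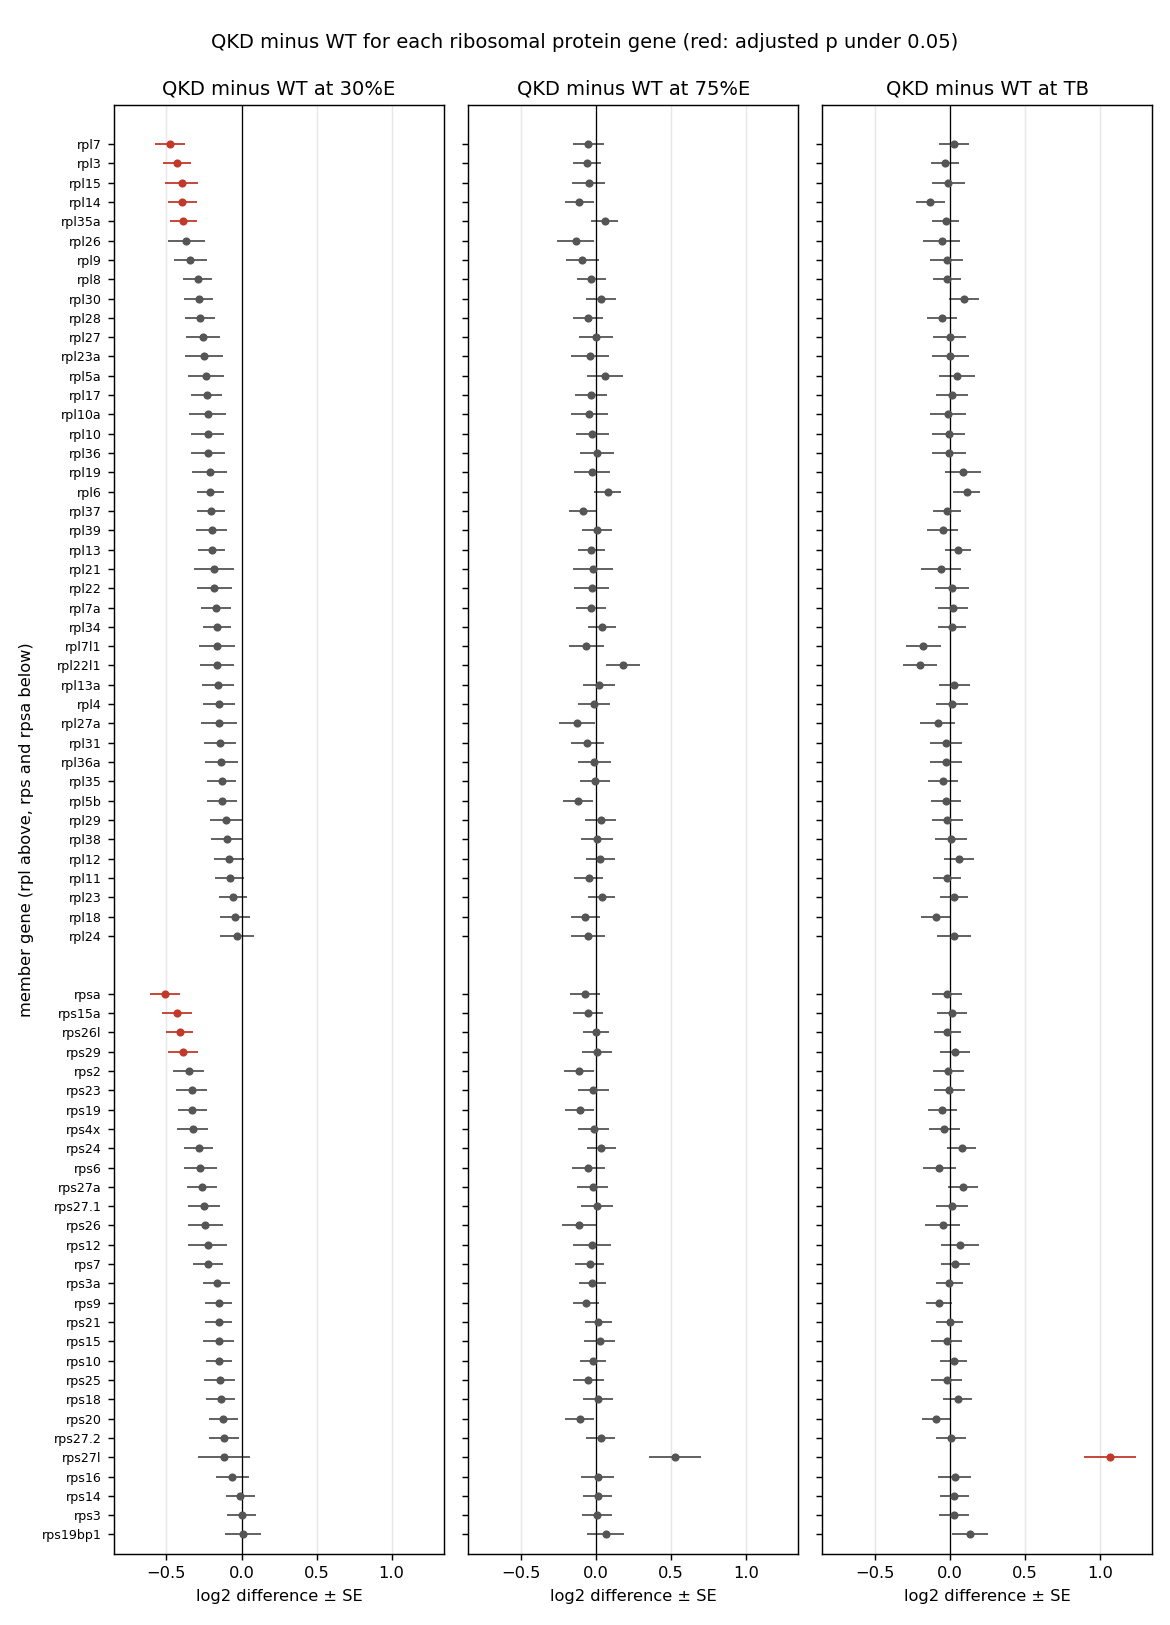
QKD minus WT (log2 difference, horizontal axis, bars ± SE) for each of the 71 genes at 30%E, 75%E and TB, with large subunit genes above and small subunit genes below, in order of the 30%E difference. Red marks an adjusted p under 0.05: 9 genes below 0 at 30%E, 0 genes at 75%E, and *rps27l* above 0 at TB.

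By position in the ribosome, median differences at 30%E ran from -0.23 to -0.13. The 3 genes of the 5S particle (*rpl5a*, *rpl5b* and *rpl11*) had a median of -0.13, the 10 genes of the exit tunnel and its rim -0.19, the 6 of mRNA entry and decoding -0.21, the 4 of mRNA exit and platform -0.23 and the 7 of the head -0.15. Calls were 1 in the platform group (*rpsa*), 1 in the head group (*rps29*) and 0 in the other groups. The large and small subunits had medians of -0.20 and -0.22. These genes shift together between arrays of a group too: in QKD embryos at 30%E 68 of the 71 were higher in replicate 1, by a median of 0.16, and in WT embryos at 30%E 59 were, by a median of 0.08. The 71 differences thus share their arrays and are not separate measurements. Few or no genes were called with QKD 30%E replicate 2, WT 30%E replicate 1 or WT 30%E replicate 2 left out. Such a fit has less precision for every probe set, and the share of all probe sets called in it is not given. The *rpsa* difference was -0.45 without QKD 30%E replicate 2 and -0.45 without WT 30%E replicate 1. In a fit on the 4 arrays of 30%E alone 1 gene was called, *rpsa*.

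Other measures also differed between QKD and WT arrays at 30%E. The 3 prime minus 5 prime log2 difference of the GAPDH control probe sets was -0.96 and -0.91 in QKD embryos and -0.45 and -0.54 in WT embryos at this stage. It lay lower in QKD at 75%E as well, at -1.04 and -0.97 in QKD embryos and -0.80 and -0.79 in WT embryos. At TB the groups overlapped. The GAPDH signals themselves were low, 39.7 to 98.4 at the 3 prime end and 93.2 to 170.8 at the 5 prime end. Array medians were 73.5 to 76.6, and the 3 prime signal lay below the 5 prime signal on every array. The 3 prime minus 5 prime difference of *acta1* at 30%E was 0.99 and 0.76 in QKD embryos and 0.92 and 0.76 in WT embryos. Of 9 enveloping layer markers measured, 2 were called lower at 30%E and 0 higher, and their summed signal was 6921 to 9596 in QKD embryos and 10384 to 12200 in WT embryos. Of 6 mesoderm markers, 2 were called lower and 0 higher, and their sum was 3456 to 3964 in QKD embryos and 5170 to 5816 in WT embryos. The 5 germ cell markers, with 1 called higher, summed to 2053 to 2321 in QKD embryos and 1904 to 2245 in WT embryos. Of the yolk syncytial layer, endoderm, neural ectoderm and non-neural ectoderm markers, 1 of 6, 2 of 5, 1 of 6 and 1 of 5 were called lower. In addition, 1 endoderm marker was called higher. Over all probe sets 2.92% were called lower and 5.14% higher at 30%E. The 3 blood markers measured summed to 104 to 107 in QKD embryos and 114 to 117 in WT embryos at 30%E, and 1 of them was above the array median on any array. The part of RNA quality and of other cell types in the 30%E result was not tested. QKD and WT embryos were matched by the stage name, and in WT these genes rise from this stage on, so a difference in age within a stage and an effect of the knockdown cannot be told apart.

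At 75%E the QKD and WT levels lay close together. The median difference was -0.02 over the 71 genes and -0.02 over all probe sets, and 0 genes were called, where 4.49% of all probe sets were called higher and 3.9% lower. At an unadjusted p under 0.05 there was 1 gene, *rps27l*, above 0 and 0 below, where 10.9% of all probe sets were above and 10.4% below. At TB the median was -0.002 and 1 gene was called, *rps27l*, which was higher, where 3.15% of all probe sets were called higher and 3.21% lower. At both stages the 95% interval lay within 0.5 log2 units of 0 for 70 of the 71 genes, *rps27l* being the exception, with a median half-width of 0.22. *rpsa*, which had the largest decrease at 30%E, had 7329.7 and 7338 in QKD embryos and 7377 and 8076 in WT embryos at 75%E, and 10165 and 9588 in QKD embryos and 9992 and 9972 in WT embryos at TB. At 75%E both QKD arrays lay just below both WT arrays, with a difference of -0.07 that was not called, and at TB the groups overlapped. The paper reports a delay of epiboly in QKD embryos, seen most after the shield stage. When normal embryos reached tailbud, QKD embryos had not yet finished epiboly. Whether samples of the same stage name were of the same age is not stated. A difference in age and an effect of the knockdown thus cannot be told apart at 75%E and TB either.

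The change of the knockdown effect between stages was tested as a contrast of the same fit. From 30%E to 75%E the estimate was above 0 for 69 of the 71 genes, with a median of 0.18, against -0.002 over all probe sets, and 0 genes were called, where 2.08% of all probe sets were called higher and 2.48% lower. An unadjusted p under 0.05 was reached by 12 genes, all with estimates above 0, where 7.59% of all probe sets passed above 0 and 9.47% below. The largest were *rps27l* (0.65, SE 0.246, adjusted p = 0.193), *rpl35a* (0.45, adjusted p = 0.0776), *rpsa* (0.44, adjusted p = 0.117) and *rpl7* (0.43, adjusted p = 0.128). With the replicate block these 4 and *rps26l* were called, 5 genes in all, beside 5.39% of all probe sets called higher. From 75%E to TB the median was 0.02 and 0 genes were called, where 0.213% of all probe sets were called higher and 0.464% lower, and at an unadjusted p under 0.05 there were 0 genes above 0 and 1 below, *rpl22l1*, beside 5.02% and 4.64% of all probe sets. A variance trend in the fit gave 5 genes for the change from 30%E to 75%E. No share over all probe sets stands beside this count.

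*rps27l* was the 1 gene of the 71 called at TB. It is a paralog of *rps27*, and in human cells its counterpart is a target of p53. In QKD embryos its signal was 352 and 261 at 30%E, 738 and 779 at 75%E and 1389 and 1193 at TB. In WT embryos it was 359 and 302 at 30%E, 454 and 608 at 75%E and 650.4 and 582 at TB. The groups overlapped at 30%E, and at 75%E and TB both QKD arrays lay above both WT arrays. QKD minus WT was -0.12 at 30%E, 0.53 at 75%E (SE 0.174, adjusted p = 0.0924) and 1.07 at TB (adjusted p = 0.0035), where the ratio of mean signals was 2.10. With the replicate block the difference at 75%E was called as well (adjusted p = 0.00762), the 1 gene of the 71 called higher, where 9.11% of all probe sets were. The 75%E difference depended on single arrays: in the fit without the block it was 0.32 without WT 75%E replicate 1 (adjusted p = 0.367) and 0.74 without WT 75%E replicate 2 (adjusted p = 0.0412). Without 1 array at a time the TB difference was 0.96 to 1.18, with adjusted p of 0.00234 to 0.0415. The change of the effect from 30%E to TB, a contrast added after the data had been seen, was 1.18 (SE 0.246, adjusted p = 0.0177), and *rps27l* was the 1 member called in it, where 2.34% of all probe sets were called higher and 3.4% lower. With the block 5 members were called higher in this contrast, where 5.6% of all probe sets were. At TB 5 of 5 non-neural and 4 of 6 neural ectoderm markers were called lower, where 3.21% of all probe sets were. Summed signals of the non-neural markers were 1513 to 1920 in QKD embryos and 3618 to 3857 in WT embryos. Those of the neural markers were 4391 to 4630 in QKD embryos and 5306 to 5416 in WT embryos. Mesoderm sums were 3353 to 3546 in QKD and 2718 to 2865 in WT, with 0 of 6 called. Enveloping layer sums were 38202 to 38408 in QKD and 40483 to 41197 in WT, with 0 of 9 called. Of 3 blood markers 1 was called higher. At 75%E 4 of 5 non-neural and 3 of 6 neural markers were called lower, where 3.9% of all probe sets were. There 2 mesoderm and 2 yolk syncytial layer markers were called higher, where 4.49% of all probe sets were, and 1 of that layer lower. The non-neural list includes *foxi1*, *dlx3b* and a *gata2* gene, whose expression the paper reports as reduced in QKD embryos. Its counts of lower calls are thus not independent of that report. The same holds for the neural list, drawn up with *hesx1*, *zic1* and *rx3*, whose expression the paper reports as lost in QKD embryos. It reports the *otx2* and *zic2b* domains as expanded at 75%E. Lower signal of these markers and less neural ectoderm thus cannot be told apart. The part of these marker lists in the *rps27l* result was not tested.

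The other *rps27* genes had estimates close to 0. At TB, *rps27.1* had 6541 and 6230.1 in QKD embryos and 6532 and 6125 in WT embryos (0.01, 95% interval -0.22 to 0.24). *rps27.2* had 3655 and 3599 in QKD embryos and 3830.3 and 3401 in WT embryos (0.01, 95% interval -0.21 to 0.22). The arrays of the QKD and WT groups overlapped for both, and neither interval reached the difference of *rps27l*, although the difference between the genes was not tested. How far the probes of these paralogs read each other's transcripts is not known from the files.

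Because *rps27l* is known as a p53 target, a list of 17 genes of the p53 response was drawn up after its values had been seen, and 12 of them are on the array. At TB 4 of the 12 were called higher in QKD embryos and 0 lower, where 3.15% of all probe sets were higher and 3.21% lower. The 4 were *phlda3* (0.92), *ccng1* (0.60), *mdm2* (0.58) and *tp53inp1* (0.49), and the median of the 12 was 0.37. By limma the adjusted p was 0.0138 for *ccng1*, 0.0382 for *mdm2* and 0.0338 for *tp53inp1*. This list was not run under the other settings or with arrays left out. *phlda3* was dim at TB, with 117 and 74.1 in QKD embryos and 50.1 and 48.5 in WT embryos (SE 0.24, adjusted p = 0.0455). Array medians were 73.5 to 76.6, and *gadd45aa* and *fas* lay below them on every array. At 75%E *phlda3* had 66.5 and 64.9 in QKD embryos and 44.4 and 41.6 in WT embryos. At 75%E 0 of the 12 were called, where 4.49% of all probe sets were called higher and 3.9% lower. At an unadjusted p under 0.05, 4 were higher and 0 lower at 75%E, beside 10.9% and 10.4% of all probe sets. At 30%E 2 were called higher, *mdm4* (0.94) and *tp53inp1* (0.50), where 5.14% of all probe sets were. Mdm2 and Mdm4 hold p53 in check, and *ccng1* and *phlda3* are genes that p53 activates in mammals. The relation of these genes to the rise of *rps27l* was not tested, and injection and knockdown cannot be told apart here. The paper reports that a coinjected morpholino against p53 did not alter the defects of QKD embryos. No arrays of such embryos are among these samples.

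Other pairs of paralogs differed in how far they rose with stage, as the plot of paralogs shows. From 30%E to 75%E in WT embryos *rpl5a* rose by 1.84 and *rpl5b* by 0.32, *rps26l* by 1.72 and *rps26* by 1.12, and *rpl22* by 1.63 and *rpl22l1* by 1.01. *rpl7* rose by 1.39, while *rpl7l1* changed by 0.15 and did not pass the test (adjusted p = 0.286). The signal of *rpl5b* was 3818 and 3757 in QKD and 4237 and 4054 in WT embryos at 30%E, and 5903 and 5651 in QKD and 6298 and 5468 in WT embryos at TB. Differences in change between paralogs were not tested. *rpl11*, the partner of Rpl5 in the 5S particle and in human cells a regulator of Mdm2, rose by 0.72 in QKD and 0.69 in WT embryos. *rps19*, the gene most often mutated in Diamond-Blackfan anemia in people, rose by 1.31 in QKD and 1.08 in WT embryos, and its knockdown difference at 30%E was -0.33 (adjusted p = 0.0641, and 0.0352 with the block).

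**Figure D4:**
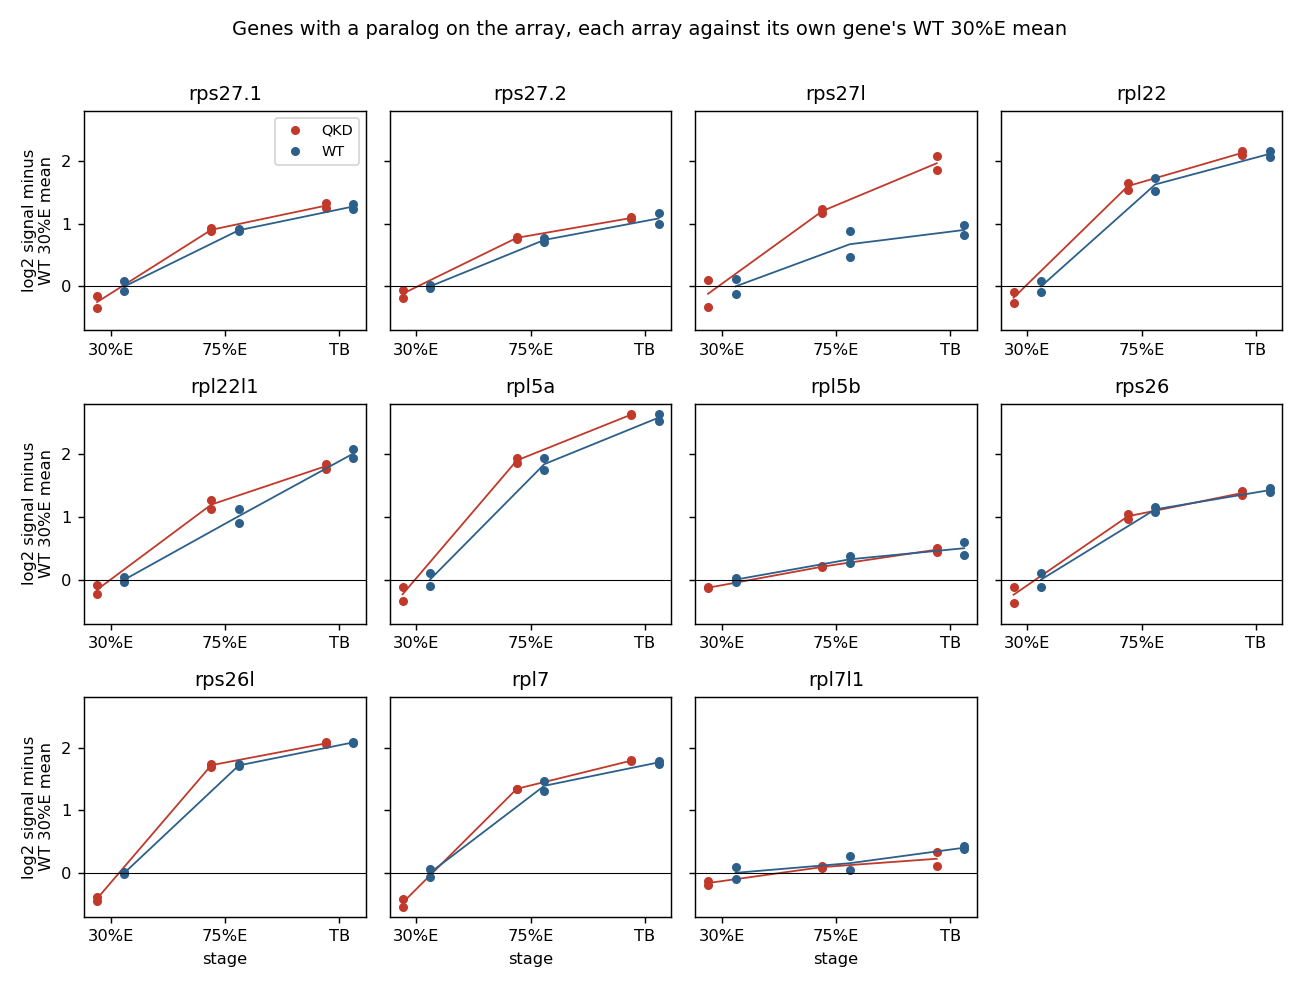
Signal of 11 genes that have a paralog on the array, each as log2 signal minus the WT 30%E mean of the same gene (vertical axis), by stage, with QKD in red and WT in blue, a point for each array and lines through group means. *rpl5a* and *rps26l* climb more steeply than *rpl5b* and *rps26*, the mean signal of *rpl7l1* at TB was 1.31 times that at 30%E in QKD and 1.32 times in WT, and *rps27l* separates QKD from WT at 75%E and TB.

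The other genes of the translation machinery give the setting. Ribosomal proteins outside the symbol rule are *rplp0*, *rplp2* and *rplp2b* of the stalk, *faua* and *faub*, whose product is cut to give Rps30, and *rack1*, a scaffold on the small subunit head. In WT embryos 5 of these 6 rose from 30%E to 75%E and *faub* fell by 0.82, where 30.2% of all probe sets rose and 27% fell. At 30%E *faua* was lower in QKD embryos, with a difference of -0.78 log2 units (SE 0.0956, adjusted p = 0.000468), with signals of 469.5 and 422 in QKD embryos and 780.4 and 753 in WT embryos that do not overlap, and the other 5 were not called. The knockdown effect on *faua* changed by 0.75 from 30%E to 75%E (adjusted p = 0.0106).

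Of 66 ribosome assembly genes, 39 rose and 9 fell from 30%E to 75%E in WT embryos, with a median of 0.44. Over all probe sets 30.2% rose and 27% fell in this step. From 75%E to TB 5 assembly genes rose and 4 fell, beside 14.1% and 13.7% of all probe sets, with a median of 0.07. At 30%E the median of the assembly genes was -0.11 in QKD minus WT. Called lower were 2 of them and called higher 0, where 2.92% of all probe sets were called lower and 5.14% higher. The 2 were *dkc1*, the pseudouridine synthase of ribosomal RNA (-0.50, adjusted p = 0.024), and *rrs1*, which helps to load the 5S particle (-0.43, adjusted p = 0.0164). At 75%E 0 assembly genes were called. At an unadjusted p under 0.05, 5 were higher and 2 lower at 75%E, beside 10.9% and 10.4% of all probe sets. At TB *bop1*, of large subunit maturation, was higher (0.45, adjusted p = 0.0284), where 3.15% of all probe sets were called higher.

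Genes with a symbol starting with eef numbered 13. Of these 10 code for elongation factors, of which 3 rose and 0 fell from 30%E to 75%E in WT embryos. Over all probe sets 30.2% rose and 27% fell in this step. The other 3 of the 13, *eef1akmt2* (a methyltransferase of eEF1A), *eef2k* (the kinase of eEF2) and *eef1e1* (a protein of the tRNA synthetase complex), rose as well. At WT 30%E *eef1akmt2* (22.1 and 19.4) and *eef2k* (17.2 and 18.8) were near or below the lower quartiles of the arrays, 20.6 to 24.1. On every array *eef1a1a* and *eef1a1b*, among the 10, lay below these quartiles. *eef1a1l3*, among the 3 that rose, was dim, with 55.7 and 51.7 at WT 30%E and 67.8 and 68.3 at WT 75%E. Array medians were between 73.5 and 76.6. *eef1b2*, an exchange factor for eEF1A, was lower in QKD embryos at all 3 stages, with differences of -0.86, -0.35 and -0.36 (adjusted p = 0.000227, 0.0431 and 0.0458). Its signals at 30%E were 1547 and 1561 in QKD embryos and 2776 and 2878 in WT embryos, which do not overlap. *eef2a.1*, a form of the translocation factor, was lower at 30%E (-0.45), and *eef1g*, of the same complex as *eef1b2*, at TB (-0.62). Apart from these, no gene of the 13 was called in QKD minus WT at any stage. Of all probe sets, 2.92% at 30%E, 3.9% at 75%E and 3.21% at TB were called lower.

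Genes with a symbol starting with eif, which are initiation factors and some of their regulators, numbered 50. Of these 22 rose and 14 fell from 30%E to 75%E in WT embryos. Of 59 mitochondrial ribosomal protein genes, 31 rose and 13 fell over this step, where 30.2% of all probe sets rose and 27% fell. In QKD embryos at 30%E, where 5.14% of all probe sets were called higher and 2.92% lower, the initiation list had 1 higher and 3 lower. The mitochondrial list had 2 called higher and 2 lower. The medians were -0.07 for the initiation list and 0.11 for the mitochondrial list. The called genes include *eif4ebp2*, a gene for a repressor of the cap-binding factor (0.94), *eif2s1b* (-0.59), *mrpl12* (0.89) and *mrpl20* (-0.54). *eif4ebp1*, for another such repressor, was higher in QKD embryos at 75%E (0.45) and TB (0.54). At these stages 4.49% and 3.15% of all probe sets were called higher. The 92 other probe sets with a mean log2 signal of at least 12 had a median of -0.04 at 30%E in QKD minus WT. They were chosen by brightness outside the symbol rule only, and include those of *rack1*, *rplp0* and *rplp2b*. Of these 92, 2 were called higher and 8 lower, beside 9 of the 71 genes called lower. The medians of the 92 were 0.12 and -0.07 for the WT steps.

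**Figure D5:**
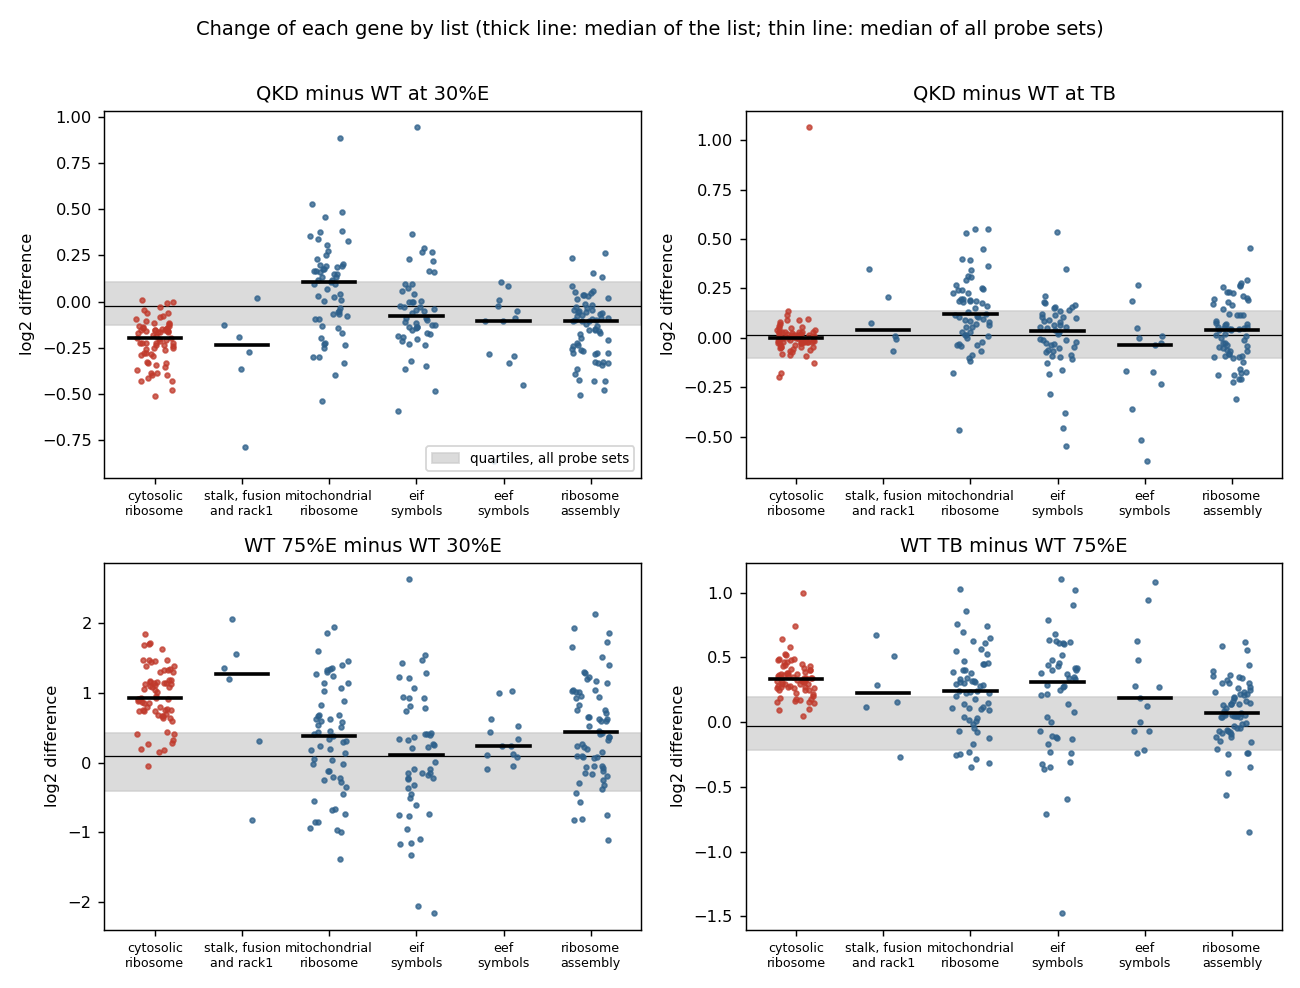
Change of each gene (log2 difference, vertical axis) in the 71 cytosolic ribosomal protein genes (red) and 5 other lists (blue) for QKD minus WT at 30%E and at TB and for both WT steps, with thick lines at list medians and a grey band between the quartiles of all probe sets. At 30%E the 71 genes have a median of -0.20, the assembly genes -0.11 and the mitochondrial ribosome 0.11, and at the WT step to 75%E the 71 genes have a median of 0.93.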

How the data were processed

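RNA of whole zebrafish embryos was measured on 12 Affymetrix arrays. The authors ran the RMA program, in which background correction is followed by quantile normalization and a summary per probe set, and deposited linear intensity values. Its version, and which arrays were processed together, are not given in the sources used here, and these steps can narrow differences at high signal. With 2 arrays per group, their number limits the precision. Tests used log2 of the deposited intensity, without the 115 controls among the 15617 probe sets. Of the other 15502, 10795 have 1 gene symbol, 135 several and 4572 none. A probe set shared by *rpl32* and *kank1a* was left out.

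Tests used R 4.3.3 and limma 3.58.1 (lmFit, eBayes) with 6 group means (residual degrees of freedom 6, prior 5.11), and p-values were adjusted by Benjamini-Hochberg across all probe sets. The fit was run on simulated data with independent noise. That run does not cover the correlation of same-numbered samples described below. Tables and figures used Python 3.11.15, numpy 2.4.6, pandas 2.3.3 and matplotlib 3.10.9. The members and the gene lists were chosen with earlier results of these data known. The text names up to 8 largest called changes per comparison whose arrays do not overlap, the 5 brightest and 5 dimmest members, paralogs, members of the role groups, genes known from human disease or p53 control, and examples of each list.

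Deviations of same-numbered QKD and WT samples from their group means were correlated at 30%E, 75%E and TB. The correlations were 0.615, 0.443 and 0.488 over all probe sets and 0.552, 0.134 and 0.277 over the 71 genes. Whether same-numbered samples share a clutch or a day is not stated in the sources. The main fit therefore has no pairing, and the replicate block is given beside it.

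Alternatives were median centring, a second quantile normalization, centring on 92 bright probe sets, a filter on probe sets under the 40th percentile, every probe set of a member, a variance trend, a fit on the compared groups, the replicate block, the study's ratio over 2, and each array left out. Promoter sequence was not analysed here.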

Additional observations from a re-analysis of the deposited data

Results flagged for a closer look

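The effect of the knockdown on *rps27l* differed between stages. QKD minus WT was 1.07 log2 units at TB and -0.12 at 30%E, a difference of 1.18 (SE 0.246, adjusted p = 0.0177 by limma with Benjamini-Hochberg adjustment). What drew attention was this contrast between stages, which was added after the data had been seen. Without 1 array at a time the adjusted p was 0.0115 to 0.0772, and with the replicate block it was 0.00102. At TB both QKD arrays lay above both WT arrays, and at 30%E the arrays overlapped.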

How the results depend on the processing

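The 9 genes called lower in QKD embryos at 30%E became 19 with a variance trend (9 shared), 1 in a fit on the compared groups and 0 by a ratio of mean signals over 2, and 0 to 10 without 1 array at a time. With the replicate block within each stage they were 15 (9 shared), 1 gene was called higher at 75%E (*rps27l*), and 5 genes were called for the change of the effect from 30%E to 75%E and 5 for that from 30%E to TB. The block moved no other count by over 1.5 times. A variance trend gave 5 and 10 genes for these changes of the effect, and counting every probe set of a member gave 2 for the one to TB, which had 0 to 2 without 1 array at a time. Shares of all probe sets called are given for the main fit and the block only. A fit without 1 array has less precision for every probe set, so whether its lower counts are particular to these genes was not tested. Higher at 75%E were 0 to 1 genes without an array. From 30%E to 75%E in WT, 34 genes passed the ratio over 2. From 75%E to TB the counts were 27 in QKD and 26 in WT after a second quantile normalization, 32 in QKD and 15 in WT in a fit on the compared groups, 0 in both by the ratio, and 15 to 49 in QKD and 13 to 41 in WT without 1 array at a time. The median change from 30%E to 75%E in WT was 0.93, and 0.79 after the second quantile normalization and 0.75 after centring on bright probe sets, which shifts all probe sets alike. In all, 163 of 180 counts and 73 of 80 medians under the other settings, the arrays left out aside, stayed within the limits set for a change, and 0 reversed. The cause of these changes was not tested. Signals lay far above the dim end of the arrays, so precision was set by 2 arrays a group, and with a median half-width of 0.22 log2 units small changes of single genes cannot be seen.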
